A study of Mus musculus with 10 samples.

Results

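Arntl, Clock and Cry1 are 3 genes of the circadian clock, measured here in the liver of mice with and without the nuclear receptor Rev-erb alpha, which is encoded by Nr1d1. Each of them is represented by 1 probe set on an Affymetrix Mouse Gene 1.0 ST array, so 3 of 27541 probe sets, or 3 of 19933 genes that could be tested, were chosen by gene symbol in the array annotation. Wild-type (WT) C57Bl/6 mice were bought. The knockouts (KO), labelled Nr1d1-/-, came from another laboratory's line, crossed back to C57Bl/6 for at least 7 generations, so genotype and origin of the mice cannot be told apart. All mice were males of 10 to 12 weeks on normal chow and a cycle of 12 h light and 12 h dark, and were killed at zeitgeber time 10, which is 10 h after lights on. There were 5 mice per genotype and 1 array per mouse.

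Arntl encodes BMAL1, which pairs with CLOCK to form the activator that switches on genes carrying E-box elements, among them the Period and Cryptochrome genes and Nr1d1 itself. The Cryptochromes CRY1 and CRY2 bind this activator and shut it down, which closes the main loop of the clock. Rev-erb alpha closes another loop: it sits on Rev-erb/ROR response elements (RREs), recruits the NCoR corepressor with the deacetylase HDAC3, and represses Arntl in the daytime, while ROR receptors activate through the same elements. In liver Rev-erb alpha is most abundant late in the light phase, when Arntl is near its trough. Elements of this kind are also known in Clock and Cry1, within introns.

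The elements next to the start of Arntl are shown first because they are the sites through which Rev-erb alpha is known to act on it. RefSeq (GRCm38.p6) gives Arntl 2 transcription starts, 46 bases apart on the plus strand of chromosome 7. Around the second start lie 2 copies of the letters AAAGTAGGT, 1 beginning 10 bases before it and 1 beginning at base 27, with the start counted as base 1. Both sites are printed 5′ to 3′ with the 11 bases of the element in capitals, the first at chr7:113207492-113207520 and the second at chr7:113207528-113207556.
Arntl first element: attggtcggAAAGTAGGTTAgtggtgcga
Arntl second element: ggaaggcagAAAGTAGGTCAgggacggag

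The second copy ends in AGGTCA, the half-site that Rev-erb and ROR receptors bind as single molecules. All 32851 RefSeq windows of 300 bases, from 250 before to 50 after a start, were searched on both strands. AAAGTAGGT, which was picked because it stands in Arntl, was found in 0.183% of them, and 2 or more copies in 3 windows, those of Arntl and of 2 other genes. AGGTCA alone was found in 16.3%. Clock has 3 starts, and AGGTCA occurs in its windows once, on the opposite strand, 119 to 114 bases before the third start. That site (chr5:76303605-76303632, minus strand) is shown with the half-site, read from the gene's strand, in capitals.
Clock half-site: gctttggcctcTGACCTgacagatgaca

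The window of Cry1, which has 1 start, held neither AGGTCA nor AAAGTAGGT. It held the E-box CACGTG, the element that BMAL1 and CLOCK bind, from 60 to 55 bases before the start; 7.15% of all windows contain these letters. The D-box TTANNTAA, which PAR bZIP factors and NFIL3 bind, was in 6% of all windows and in none of those of the 3 genes. Matches in the windows of the E-box genes described further on were not examined. The 250 bases before the start of Cry1 (chr10:85185055-85185304, minus strand) are printed with the E-box in capitals.
Cry1 upstream: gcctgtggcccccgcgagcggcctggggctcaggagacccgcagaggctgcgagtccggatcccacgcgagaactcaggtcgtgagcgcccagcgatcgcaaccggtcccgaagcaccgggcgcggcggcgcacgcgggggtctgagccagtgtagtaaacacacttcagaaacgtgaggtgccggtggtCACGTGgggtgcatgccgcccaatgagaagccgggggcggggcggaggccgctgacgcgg
A match is a description of letters, and the introns were not searched as such.

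All values that follow are log2 of the deposited normalized intensity, and differences are KO minus WT on that scale with the standard error (SE) of a limma fit over 19933 genes. A gene passed the test when its p, adjusted by the Benjamini-Hochberg method over all of these genes, was under 0.05. Nr1d1 itself did not pass: its probe set read 9.60 to 10.00 in WT and 9.29 to 10.54 in KO livers (difference 0.14, SE 0.18, adjusted p = 0.803). Its place relative to the deletion is not known here, and a probe set outside the deletion checks nothing about the labels. Hepatocyte genes were high in every array (7 of the 8 listed were measured, with a mean level of 13.50 to 13.63 per array, against 7.28 to 7.37 for the median probe set). Of 37 measured markers of hepatocytes and of 7 other cell types, 1 passed, against 5.61% of all genes tested. This was the cholangiocyte transcription factor gene Sox9 (difference 0.62, adjusted p = 0.0129). The other 3 measured cholangiocyte markers lay between -0.11 and -0.01. An unadjusted p under 0.05 in limma, which 17.4% of all genes reached, was also found for 2 of 5 sinusoidal endothelium markers (differences of the 5 from -0.14 to 0.21). It was found too for 1 of 5 stellate cell markers (-0.59 to 0.01) and 1 of 5 lymphocyte markers (0.03 to 0.18). In WT the mean level of the 4 measured cholangiocyte markers was 7.12 to 7.32 and in KO 7.25 to 7.51, and the part of these cells in the results was not tested. In whole liver, fewer cells of a type and less RNA per cell cannot be told apart.

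At zeitgeber time 10 all 3 genes were higher in KO liver, by 4.38-fold for Arntl, 1.78-fold for Clock and 1.48-fold for Cry1. Other times of day were not measured, here or for the genes that follow, so their daily rhythm was not tested. Of all genes tested, 5.61% passed the test in either direction and 3.17% as higher. In each of the 3 genes the 5 KO livers all exceeded the 5 WT livers, which held for 3.99% of all genes. By size of increase, Arntl ranked 7, Clock 89 and Cry1 191 among the 19933 genes. The 3 genes were chosen with earlier results of these data known, so these shares and ranks are given as a description.

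**Figure D1:**
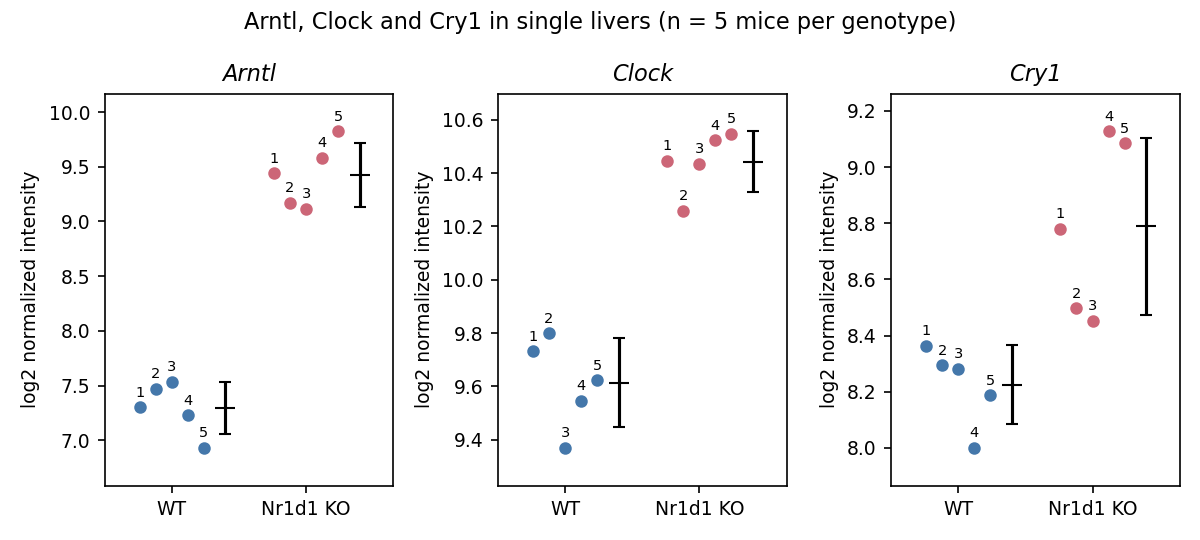
Log2 normalized intensity of Arntl, Clock and Cry1 (vertical axes, each with its own range) in single livers of WT (blue) and Nr1d1 KO mice (red), numbered by replicate; the black bars are the mean ± SD of 5 mice. The groups do not overlap in any of the 3 panels, and the gap narrows from 1.58 in Arntl to 0.089 in Cry1.

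Arntl read 7.30, 7.47, 7.54, 7.23 and 6.93 in WT replicates 1 to 5, and 9.44, 9.17, 9.12, 9.58 and 9.82 in KO replicates 1 to 5. The lowest KO liver stood 1.58 above the highest WT liver, a gap wider than the range within either genotype. The group levels were 7.30 ± 0.24 in WT and 9.43 ± 0.29 in KO (SD, n = 5 each). The difference was 2.13 (SE 0.14, limma adjusted p = 3.2e-06), and its 95% interval ran from 1.83 to 2.44, or from 3.55-fold to 5.42-fold. On the linear scale the mean intensity of Arntl was 159 in WT and 700.0 in KO livers. In WT replicates 4 and 5 Arntl read below the median probe set of its array (7.33 and 7.32). Whether it was detected in these 2 livers is not known, and the part of background signal in the fold was not tested.

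Clock, the DNA-binding partner of BMAL1, rose by less than Arntl and varied less between mice. It read 9.73, 9.80, 9.37, 9.55 and 9.62 in WT, and 10.45, 10.26, 10.44, 10.52 and 10.55 in KO. The lowest KO liver, replicate 2, stood 0.46 above the highest WT liver, also replicate 2 of its group. The group levels were 9.61 ± 0.17 and 10.44 ± 0.11 (SD, n = 5 each), a difference of 0.83 (SE 0.082, limma adjusted p = 9.5e-05) with a 95% interval from 0.65 to 1.01, or 1.57-fold to 2.01-fold.

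Cry1, the repressor of BMAL1 and CLOCK, rose least of the 3 and had the largest SD among KO livers. It read 8.36, 8.29, 8.28, 8.0 and 8.19 in WT, and 8.78, 8.50, 8.45, 9.13 and 9.09 in KO. KO replicates 4 and 5 were high, whereas KO replicates 2 and 3 lay near the WT range and left a gap of 0.089. The group levels were 8.23 ± 0.14 and 8.79 ± 0.32 (SD, n = 5 each), a difference of 0.56 (SE 0.13, limma adjusted p = 0.0244) with a 95% interval from 0.28 to 0.85, or 1.21-fold to 1.80-fold. The call of Cry1 was lost without WT replicate 5 (adjusted p = 0.0561), KO replicate 4 (0.0567) or KO replicate 5 (0.0525), at differences of 0.48 to 0.55.

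Arntl and Cry1 varied more between mice of one genotype than most genes did. The SD within a genotype, pooled over WT and KO, was 0.27 for Arntl, 0.24 for Cry1 and 0.14 for Clock, against a median of 0.10 over all genes tested. These values exceeded those of 97.3%, 96.5% and 78.9% of genes. The KO livers fell in nearly the same order for the 3 genes: replicates 4 and 5 were the highest pair in each, replicate 1 came next, and replicates 2 and 3 were lowest. In WT livers replicates 1 to 3 were the 3 highest and replicates 4 and 5 the 2 lowest for Arntl and Cry1, but not for Clock, of which replicate 3 was lowest.

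The arrays of KO replicates 4 and 5 also had a wider interquartile range (IQR) of log2 values, 2.96 and 2.99, than those of KO replicates 1 to 3 (2.80 to 2.82). WT replicate 1, at 2.98, completes the 3 widest of the 10 arrays, and the other WT arrays ranged from 2.81 to 2.94. Without these 3 arrays the difference was 1.95 for Arntl (limma adjusted p = 0.000344), 0.80 for Clock (0.0043) and 0.39 for Cry1 (0.0853), so that Cry1 no longer passed with 4 WT and 3 KO arrays. With the IQR as a covariate and all arrays kept, a fit chosen after seeing the data, the difference of Cry1 was 0.64 (adjusted p = 0.00275), that of Arntl 2.18 and that of Clock 0.87. The part of array spread in the order of the KO livers was not tested further.

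**Figure D2:**
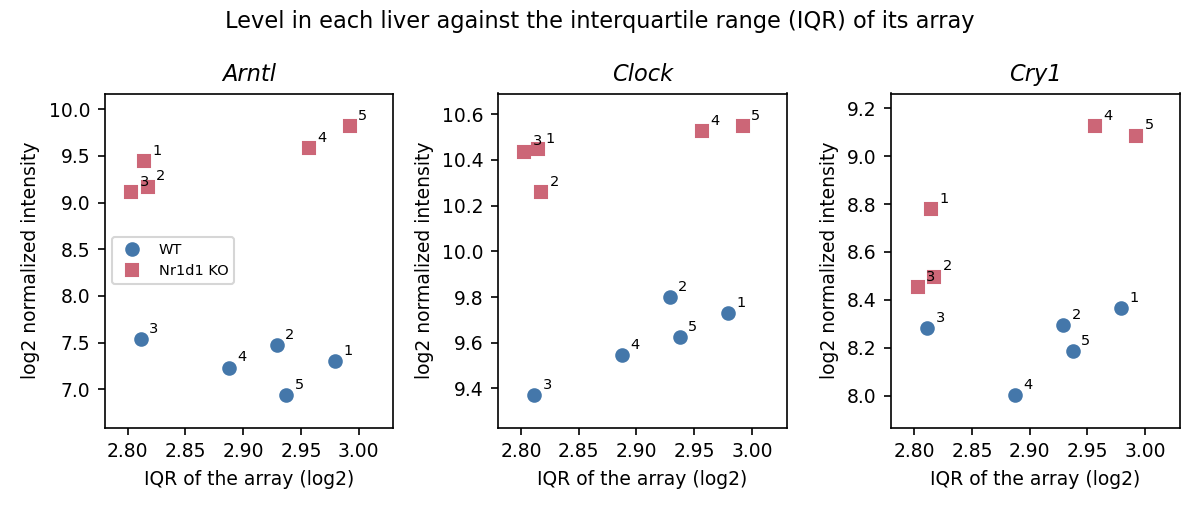
Log2 normalized intensity of Arntl, Clock and Cry1 (vertical axes, each with its own range) against the IQR of each array (horizontal axis, log2 units); circles are WT and squares Nr1d1 KO livers, numbered by replicate. KO replicates 4 and 5, with an IQR of 2.96 and 2.99, are the 2 highest points of each panel, and KO livers lie above WT livers at both ends of the IQR range.

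Whether the genes differed in their response was tested on the log2 difference of 2 genes within each mouse, with an exact permutation test, two-sided, over every way to assign 5 of the 10 arrays to KO, and p-values were adjusted over the 5 pairs that could be formed. The smallest possible p is 0.00794. Arntl rose more than Clock by 1.30 (95% interval 0.89 to 1.68, exact permutation p = 0.00794, adjusted p = 0.0132) and more than Cry1 by 1.57 (1.32 to 1.85, p = 0.00794, adjusted p = 0.0132). For Clock against Cry1 the difference was 0.27 and its 95% interval, -0.04 to 0.60, included 0 (exact permutation p = 0.0873, adjusted p = 0.0873). That pair passed without KO replicate 4 (difference 0.33, adjusted p = 0.0397), and also when the 3 arrays of widest IQR were left out (0.41, adjusted p = 0.0357). With the 4 WT and 3 KO arrays then left there are fewer assignments. The smallest possible p is larger there than 0.00794, and the pair stood at it. Probe sets can follow RNA amounts with different slopes, which was not measured here.

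The paralogs did not pass where the 3 genes did. Arntl2, which encodes BMAL2, read 6.49 to 6.78 in WT and 6.66 to 6.96 in KO (difference 0.06, SE 0.071, limma adjusted p = 0.78). Cry2, the other Cryptochrome, read 9.25 to 9.48 in WT and 9.28 to 9.56 in KO (difference 0.08, SE 0.063, adjusted p = 0.616). The WT and KO livers overlapped for both. Arntl2 read below the median probe set of every array (7.28 to 7.37), so whether it was detected in these livers is not known. Neither paralog passed in limma at an unadjusted p under 0.05 either, and the 95% intervals were -0.09 to 0.22 for Arntl2 and -0.06 to 0.22 for Cry2. The differences in response were tested directly. Arntl rose more than Arntl2 by 2.07 (95% interval 1.56 to 2.60, exact permutation p = 0.00794, adjusted p = 0.0132), and Cry1 more than Cry2 by 0.48 (0.12 to 0.81, exact permutation p = 0.0238, adjusted p = 0.0298). The second of these did not pass once the 3 arrays of widest IQR were left out (difference 0.35, adjusted p = 0.171). Npas2, the paralog of Clock, was not analysed here.

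Of other clock genes known to carry RREs, Nfil3 was measured. It encodes a repressor that competes with PAR bZIP factors at D-boxes. Nfil3 read 8.25, 8.81, 8.70, 8.23 and 8.02 in WT, and 9.30, 9.33, 9.59, 9.52 and 10.04 in KO. The KO livers again all exceeded the WT livers, with a gap of 0.49, and replicate 5 was the highest KO liver. The difference was 1.15 (SE 0.17, limma adjusted p = 0.00134), between those of Arntl and Clock.

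None of the 4 measured receptors that bind RREs passed in limma, and none had an unadjusted p under 0.05. Besides Nr1d1 these were its paralog Nr1d2, which encodes Rev-erb beta (10.96 to 11.22 in WT, 10.86 to 11.21 in KO, difference -0.06), the activator gene Rora (10.11 to 10.33 and 10.20 to 10.58, difference 0.12), and Rorb. Of the corepressor genes through which Rev-erb alpha acts, 4 of 6 were measured and 0 passed in limma, with 2 at an unadjusted p under 0.05, a level that 17.4% of all genes reached. Hdac3, the deacetylase, had a difference of 0.17 (SE 0.047, adjusted p = 0.058), and Tbl1xr1, a subunit that binds histones, one of 0.40 (SE 0.13, adjusted p = 0.116). Hdac3 passed with 4 other settings (adjusted p = 0.031 to 0.0388), and Tbl1xr1 without WT replicate 4 (0.0305).

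The E-box and D-box genes of the clock are targets of BMAL1 and CLOCK or of the factors they drive. More of those that passed were lower than higher. Of 14 measured, 1 rose, 3 fell and 10 did not pass, against 3.17% higher and 2.44% lower over all genes. Nr1d2 and Cry2 are among the 10 and were also counted above. At an unadjusted p under 0.05 in limma there were 7 of the 14, against 17.4% of all genes. Those that reached this level without passing were Per3 (-0.22), Usp2 (-0.20) and Tef (-0.10), all lower. The median difference of the 14 was -0.11, beside 0.01 over all genes. This list and its outcome were known from an earlier analysis of these data and are given here as a description.

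Nampt, a gene that carries E-boxes and encodes an enzyme in the synthesis of NAD from nicotinamide, fell most. It read 11.10, 11.07, 11.28, 11.04 and 11.27 in WT and 10.30, 10.30, 10.15, 10.38 and 10.51 in KO. All KO livers lay below all WT livers, which held for 3.02% of all genes, and it fell by 0.82 (SE 0.072, limma adjusted p = 3.8e-05). Wee1, a kinase that holds back mitosis, fell by 0.75 (SE 0.087, adjusted p = 0.000321), again with no overlap.

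The Period genes encode the partners of CRY1 in the repressor complex. Per2 fell by 0.50 (SE 0.12, adjusted p = 0.0276), from 9.50 to 10.21 in WT to 9.24 to 9.58 in KO, so the groups overlapped. The overlap came from WT replicate 4 (9.50), as the other WT livers read 9.90 to 10.21. Per2 missed the threshold when any of 6 single arrays was left out and when the 3 arrays of widest IQR were (0.16). Leaving out single arrays gave Per2 differences from -0.61 to -0.43, with limma adjusted p from 0.00183 to 0.0693. Per1 (-0.12, adjusted p = 0.719) did not pass, nor did Per3 (-0.22, adjusted p = 0.0631), which passed with a filter on dim genes and with array weights (adjusted p from 0.0298) and without 1 array (0.0374). The gene that rose was Hlf, a PAR bZIP activator, from 9.80 to 10.07 in WT to 10.25 to 10.40 in KO (difference 0.35, SE 0.057, adjusted p = 0.00286), with no overlap.

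**Figure D3:**
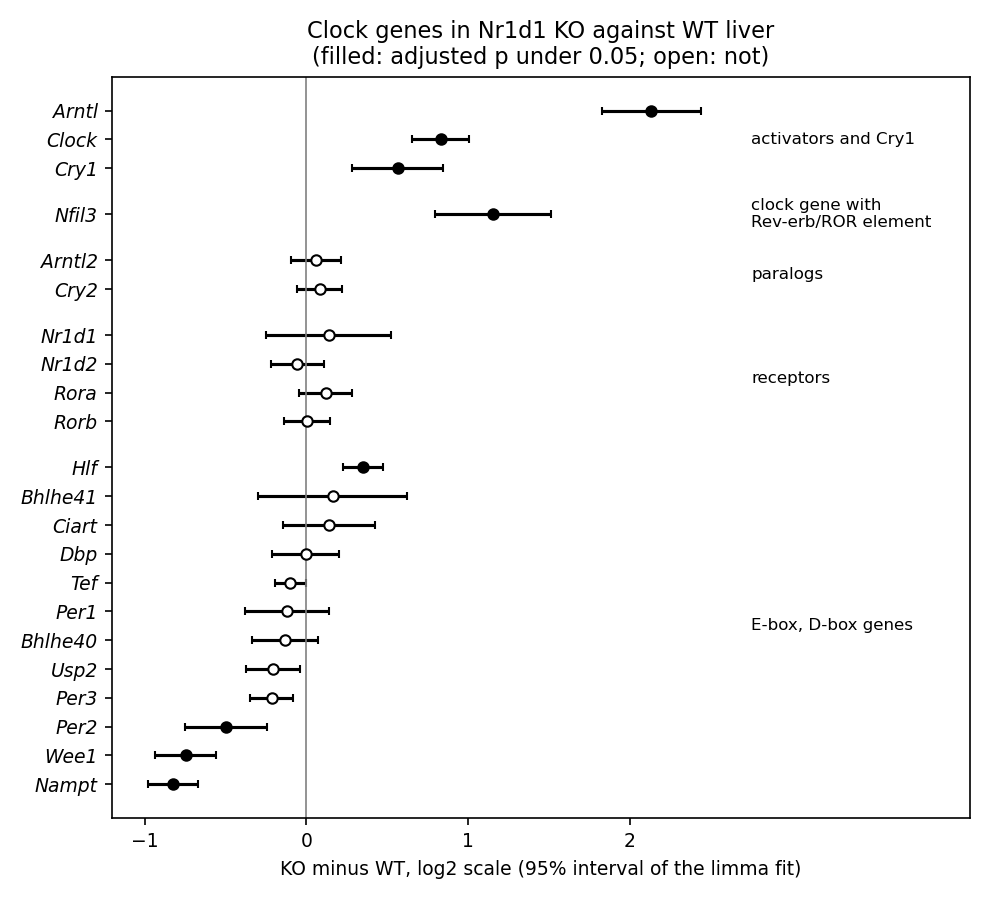
Differences of clock genes between Nr1d1 KO and WT liver (horizontal axis, log2 scale), each with its 95% interval from the limma fit on 5 livers per genotype; filled points have an adjusted p under 0.05, open points do not, and rows are grouped by role. Arntl (2.13), Nfil3 (1.15), Clock (0.83) and Cry1 (0.56) lie above 0, the paralogs Arntl2 and Cry2 lie near 0, and Nampt (-0.82) and Wee1 (-0.75) lie farthest below it.

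Of genes whose products modify BMAL1, CLOCK or CRY proteins, 15 of 18 listed were measured, 0 rose and 2 fell in limma, against 2.44% of all genes that fell. At an unadjusted p under 0.05 there were 4 of the 15, 2 of them higher, against 17.4% of all genes. Ddb1, a scaffold of ubiquitin ligases that target CRY1, fell by 0.20 (SE 0.043, limma adjusted p = 0.0178), from 11.04 to 11.13 in WT to 10.81 to 10.95 in KO. Prkaa2, a catalytic subunit of the kinase AMPK, which phosphorylates CRY1 and marks it for breakdown, fell by 0.32 (SE 0.068, adjusted p = 0.015), from 11.15 to 11.46 in WT to 10.83 to 11.12 in KO. Neither gene's groups overlapped. Neither passed when the 3 arrays of widest IQR were left out (adjusted p = 0.143 for Ddb1 and 0.119 for Prkaa2). The other 13 genes, among them the casein kinase genes Csnk1d and Csnk1e, had differences from -0.10 to 0.16.

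Genes with the most similar profile were found by the root mean square (RMS) difference over the 10 arrays, each gene taken relative to its own WT mean. Nearest to Arntl were Clpx, an unfoldase of mitochondria (RMS difference 0.32, KO minus WT 1.89), Acnat2, a peroxisomal acyltransferase (0.38 and 2.45), and Chic1 (0.39 and 1.82). These nearest profiles lay farther off than those of Clock and Cry1. Nearest to Clock were Mfsd4b3-ps (0.13 and 0.72), Pnp, a purine nucleoside phosphorylase (0.13 and 0.86), and Car5b, a mitochondrial carbonic anhydrase (0.14 and 0.96).

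Nearest to Cry1 were Fam13b (RMS difference 0.13, KO minus WT 0.69), Plpp1, a lipid phosphatase (0.15 and 0.56), and Chrm3, a muscarinic acetylcholine receptor (0.15 and 0.62). As in Cry1, KO replicates 4 and 5 were the 2 highest livers for all 3 of these genes. Fam13b read 9.15, 8.97, 8.80, 9.44 and 9.33 in KO replicates 1 to 5, in the same order as Cry1. These profiles were chosen by likeness and their differences are descriptions.

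The order of the 3 genes in certainty was the same under every setting tried. The adjusted p of Arntl was at most 0.000344 and that of Clock at most 0.0043 over all 20 settings other than the reported one, whereas that of Cry1 ranged from 0.00275 to 0.0853. The difference of Arntl stayed between 1.95 and 2.21, that of Clock between 0.77 and 0.88, and that of Cry1 between 0.39 and 0.65.

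**Figure D4:**
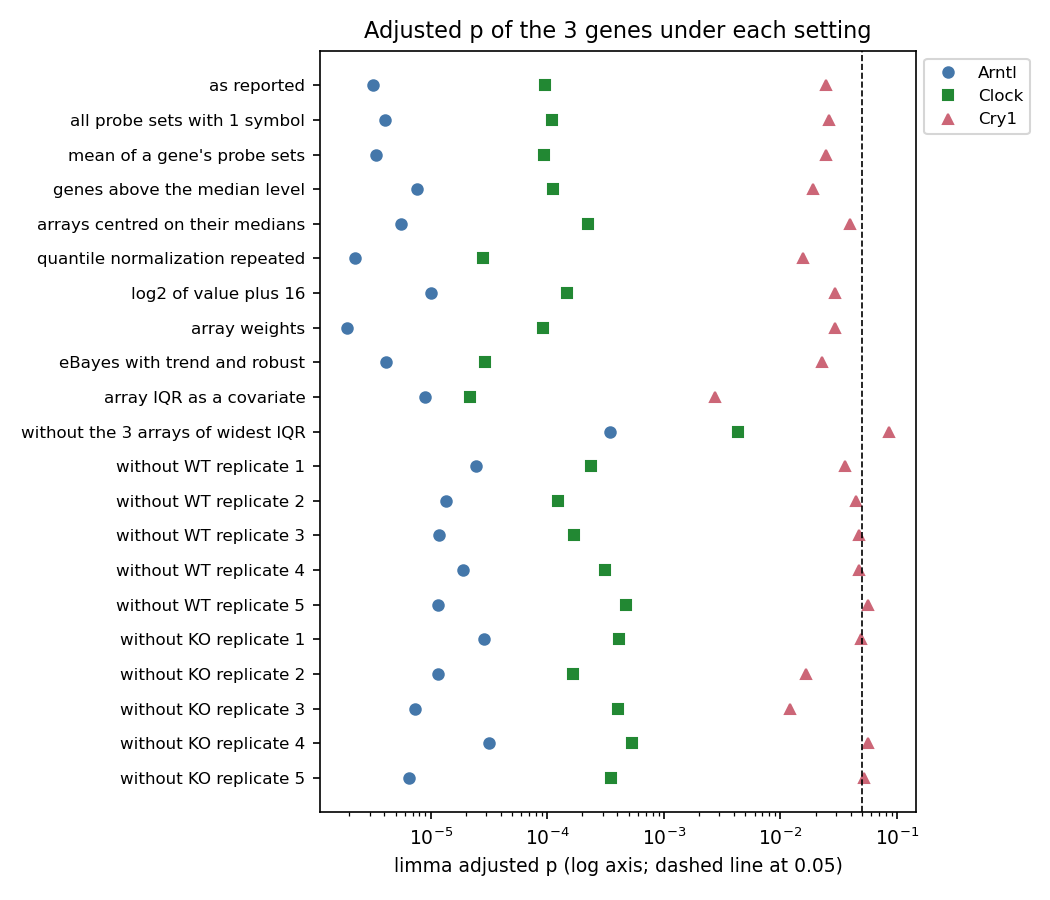
Limma adjusted p (horizontal log axis, dashed line at 0.05) of Arntl, Clock and Cry1 as reported and under each other setting (rows). Arntl and Clock stay left of the line in every row, and Cry1 crosses it in 4 rows, without WT replicate 5, KO replicate 4 or KO replicate 5 and without the 3 arrays of widest IQR (0.0853).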

How the data were processed

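RNA of single mouse livers was hybridized to 1 array each. Normalized intensities of 27541 probe sets were deposited by the authors; RMA and Partek are named, without versions, per the submitters' processing notes. The values were linear (8.93 to 18280), so log2 was taken. Detection calls are not part of the table, so how far a signal exceeds background is not known, and the number of arrays limits the precision.

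Of all probe sets, 21631 had 1 gene symbol in the array annotation, 1317 had several and 4593 had none there; those with 1 were tested, with the probe set of highest mean for each gene. KO was compared with WT by limma 3.58.1 (R 4.3.3; lmFit, eBayes, two-sided, no covariates), tested on simulated data. Intervals are 95%; those of gene pairs hold the shifts that the permutation test does not reject at 0.05. The p-values rest on the spread between these mice. In limma, eBayes also draws the variance of each gene toward that of all genes tested. This lowers the SE of variable genes such as Arntl and Cry1, and the call of Cry1 was not tested without it.

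Genes named are the 3 genes, the measured genes of fixed clock lists and the 3 most similar profiles of each, leaving out clone and model names. The members and lists were chosen with earlier results of these data known. Alternatives covered probe set choice, a filter on dim genes, scaling, an added offset of 16, array weights, eBayes options, array IQR, and leaving out arrays.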

Additional observations from a re-analysis of the deposited data

Results flagged for a closer look

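Among 92 groups of 5 livers (41 genes and 5 gene pairs in each genotype), 4 held a value that stood apart from the other 4 by more than 0.71 of the group's range, while chance flags about 1 in 20 groups. For Arntl2, KO replicate 3 read 6.96 against 6.66 to 6.69 in the other KO livers. For Per1, WT replicate 4 read 9.14 against 9.64 to 9.84. For Tbl1x, a corepressor subunit that did not pass the test, KO replicate 3 read 10.34 against 10.63 to 10.72. For the log2 difference of Arntl and Cry1 within a mouse, KO replicate 4 stood at 0.46 against 0.66 to 0.74 in the other KO livers.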

How the results depend on the processing

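Arntl and Clock kept direction and call in all 20 other settings. Leaving out 1 array at a time gave differences of 2.03 to 2.21 for Arntl, 0.77 to 0.88 for Clock and 0.48 to 0.65 for Cry1, and 805 to 1248 called genes against 1119. It gave 1.21 to 1.42 for Arntl against Clock, 1.49 to 1.62 for Arntl against Cry1, 0.18 to 0.33 for Clock against Cry1, 1.96 to 2.21 for Arntl against Arntl2 and 0.41 to 0.58 for Cry1 against Cry2. Without the 3 arrays of widest IQR, which leaves fewer arrays, 527 genes were called, Cry1 (0.39) and Cry1 against Cry2 (0.35) lost their calls, Clock against Cry1 (0.41) gained one, and 0 protein regulators were called. Per2 (-0.41), Ddb1 (-0.16) and Prkaa2 (-0.32) also lost theirs. Of the corepressor genes, 1 was called, Hdac3, with genes above the median level, repeated quantile normalization, log2 of the value plus 16, or eBayes with trend and robust, and 0 to 1 when single arrays were left out. The cause was not tested. Nr1d1, which did not pass, ranged from -0.017 to 0.29 when single arrays were left out, and turned negative without KO replicate 3. Between 3 and 5 of the E-box and D-box genes were called in any setting. Clock against Npas2 was not run. No paired analysis was possible because the labels give no replicate numbers that the genotypes share.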
